A study of Mus musculus with 6 samples.

Results

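The gene set comprised 10 genes that encode checkpoint ligands and related inhibitory molecules of the cell surface, taken by name from a table of 56953 mouse genes: Cd274, Pdcd1lg2, Cd276, Vtcn1, Pvr, Nectin2, Cd47, Lgals9, Cd80 and Cd200. All 10 were found in the table. They were measured by RNA sequencing in 6 cell lines of mouse pancreatic ductal adenocarcinoma (PDAC): KPC850, KPC630, KPC490, KPC469, KPC180 and KPC142. Each line had a single unreplicated library. The labels give the strain as KPC, the usual name of a genetically engineered mouse model of this cancer, but name no allele, sex, passage or treatment for a line. The study concerned lines whose tumours draw few or many CD8+ T cells, but the labels do not say which line belongs to which class, so every line is given its own value and no group was compared or tested. Intervals below are exact 95% intervals that cover counting error only, and the spread between cultures of a line is unknown.

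Tumour cells and antigen-presenting cells restrain T cells, natural killer cells and macrophages through surface ligands that bind inhibitory receptors on those cells. PD-L1 (Cd274) and PD-L2 (Pdcd1lg2) bind PD-1, and the related B7 proteins B7-H3 (Cd276) and B7-H4 (Vtcn1) also dampen T cells. Pvr (CD155) and Nectin2 (CD112) bind both the activating receptor CD226 and the inhibitory receptor TIGIT, and Nectin2 also binds the inhibitory receptor PVRIG. CD47 binds SIRP-alpha on macrophages and blocks engulfment, CD200 restrains myeloid cells through its receptor, and galectin-9 (Lgals9) is a secreted lectin reported to bind TIM-3. CD80 engages CD28 to stimulate T cells and CTLA-4 to restrain them. Interferon-gamma from T cells is a well-known inducer of Cd274 in tumour cells.

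Library totals ran from 16471558 to 18701274 counts, so that 3 counts, the floor used for genes at 0, were worth 0.16 to 0.182 CPM (counts scaled to equal library totals after TMM adjustment). Keratin genes of ductal epithelium were abundant, with Krt8 between 843.3 CPM in KPC469 and 4179.9 CPM in KPC850, although Epcam stayed between 0.243 and 10.5 CPM. Of 7 leukocyte markers, 6 stayed under 1 CPM in every line, Adgre1 at 0 throughout, and the 7 summed to 1.45 to 3.94 CPM, mostly Cd68. Of 10 markers of fibroblasts, endothelium and acinar cells, 7 stayed under 1 CPM in every line, Dcn, Lum and Cpa1 among them at 0. The others were fibroblast markers: Col1a1 reached 2.66 CPM in KPC630, and Pdgfra 2.23 CPM and Pdgfrb 3.05 CPM in KPC469. The sum of the 10 ran from 0.899 CPM in KPC142 to 7.41 CPM in KPC469.

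The sequences upstream of 5 of the genes are shown because they differ in CpG content, a common property of promoters active in many cell types, and because interferon-responsive elements are sought in this gene family. Each run holds the 250 bases before the RefSeq start site (build GRCm38.p6), 5′ to 3′ on the gene's strand, with every CpG and every motif found in capitals.
Cd47 (GRCm38.p6 chr16:49855404-49855653, plus strand): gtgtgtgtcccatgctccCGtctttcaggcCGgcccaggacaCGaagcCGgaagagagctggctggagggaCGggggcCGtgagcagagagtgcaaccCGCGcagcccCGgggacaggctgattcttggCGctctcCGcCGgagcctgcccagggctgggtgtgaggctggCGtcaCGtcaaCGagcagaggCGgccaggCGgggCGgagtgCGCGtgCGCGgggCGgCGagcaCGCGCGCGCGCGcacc
Cd276 (GRCm38.p6 chr9:58555034-58555283, minus strand): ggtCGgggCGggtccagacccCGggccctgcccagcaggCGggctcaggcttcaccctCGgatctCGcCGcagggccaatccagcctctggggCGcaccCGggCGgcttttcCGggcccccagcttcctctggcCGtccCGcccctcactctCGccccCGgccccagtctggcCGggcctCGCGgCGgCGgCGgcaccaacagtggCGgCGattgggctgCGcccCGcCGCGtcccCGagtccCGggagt
Cd274 (GRCm38.p6 chr19:29367188-29367437, plus strand): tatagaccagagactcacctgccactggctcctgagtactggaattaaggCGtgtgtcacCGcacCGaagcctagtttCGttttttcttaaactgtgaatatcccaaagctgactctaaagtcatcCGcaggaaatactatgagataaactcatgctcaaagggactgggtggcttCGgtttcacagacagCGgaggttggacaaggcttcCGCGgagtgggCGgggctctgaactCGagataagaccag
Lgals9 (GRCm38.p6 chr11:78984925-78985174, minus strand): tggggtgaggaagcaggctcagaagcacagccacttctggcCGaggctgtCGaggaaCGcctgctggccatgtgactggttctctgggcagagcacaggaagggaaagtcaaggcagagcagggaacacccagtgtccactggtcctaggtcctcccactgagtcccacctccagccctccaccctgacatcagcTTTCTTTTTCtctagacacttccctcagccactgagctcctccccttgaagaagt
Pdcd1lg2 (GRCm38.p6 chr19:29410669-29410918, plus strand): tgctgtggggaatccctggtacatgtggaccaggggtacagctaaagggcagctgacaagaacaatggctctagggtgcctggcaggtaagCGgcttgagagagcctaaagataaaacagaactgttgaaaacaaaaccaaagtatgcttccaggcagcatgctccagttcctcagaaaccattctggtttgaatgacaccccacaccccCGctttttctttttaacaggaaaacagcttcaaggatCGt

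RefSeq windows were matched by symbol for 9 of the 10 genes, and Pvr had no entry. Over all 32841 windows of this length the median was 6 CpGs. The Cd47 window shown held 30 CpGs (the window of its other start, a few bases away, held 31), the Cd276 window 29, the Nectin2 window 16 and the Cd274 window 11. The windows of Vtcn1 (5), Cd80 (3) and Pdcd1lg2 (3) held fewer than the median, and that of Cd200 (6) was at it. These 4 genes had little or no RNA in these lines. Cd274, with 11 CpGs, was also low, at 0.708 to 2.45 CPM outside KPC490. Lgals9 was well expressed and held 3 CpGs. The interferon-stimulated response element was searched on both strands as 2 copies of GAAA with 2 bases between them, the interferon-gamma activation site as TTC and GAA with 3 bases between them, and the E-box as CACGTG. Lgals9 had 1 match to the first, on the opposite strand and beginning 55 bases before the start site; 2.98% of all windows held such a match. No match to the other motifs was found in the windows of the 9 genes, against 7.02% and 6.02% of all windows, and nothing follows for a factor from the absence of these letters in 250 bases.

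Levels of different genes were compared per length, as CPM per kilobase of annotated exon, and the highest of the 10 genes was then named for each line. Lgals9 was highest in KPC850 at 79.8, ahead of Cd47 at 25 (ratio 3.19, 3.03 to 3.37). In KPC630 Lgals9 stood at 59.3 and Nectin2 at 22.2 (ratio 2.67, 2.5 to 2.85), and in KPC180 Lgals9 stood at 51.8 and Nectin2 at 29.1 (ratio 1.78, 1.67 to 1.91). Per exon length Lgals9 thus led in these 3 lines, and it was nominally the highest there with each of 4 definitions of gene length. Per coding length, however, it lay about level with Cd47, at a ratio of 1.05 in KPC850, 1 in KPC630 and 1.06 in KPC180.

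The other 3 lines had lower Lgals9, and it was not the highest gene there with every length. In KPC469 Cd47 was highest at 23.5, with Cd276 at 22.1 and Lgals9 at 20, and these 3 lay close together per exon length (Cd47 over Cd276 1.07, 1 to 1.14). Cd47 was nominally the highest there with all 4 lengths. It led Cd276 by 1.99 times per mean length of coding transcripts and by 1.69 times per coding length. Per longest coding transcript it led Lgals9 by only 1.045 times (28.1 against 26.9). In KPC142 Lgals9 stood at 23.9, Cd47 at 14.7, Cd276 at 12 and Pvr at 10.2. In KPC490 Lgals9 (22.3) and Nectin2 (22.1) could not be separated (ratio 1.01, 0.92 to 1.1), and Cd47 (14.1), Pvr (12.8) and Cd276 (12.3) followed. For KPC142 and KPC490 the choice of length decided the order. Per mean length of coding transcripts and per coding length Cd47 was the highest gene in both lines. Per coding length Lgals9 (48.2) was also below Pvr (51.2) in KPC142, and in KPC490 Lgals9 (44.9) was below Pvr (63.9), Nectin2 (48.7) and Cd276 (47.5) as well. No single gene can therefore be named as the highest in these 2 lines.

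**Figure D1:**
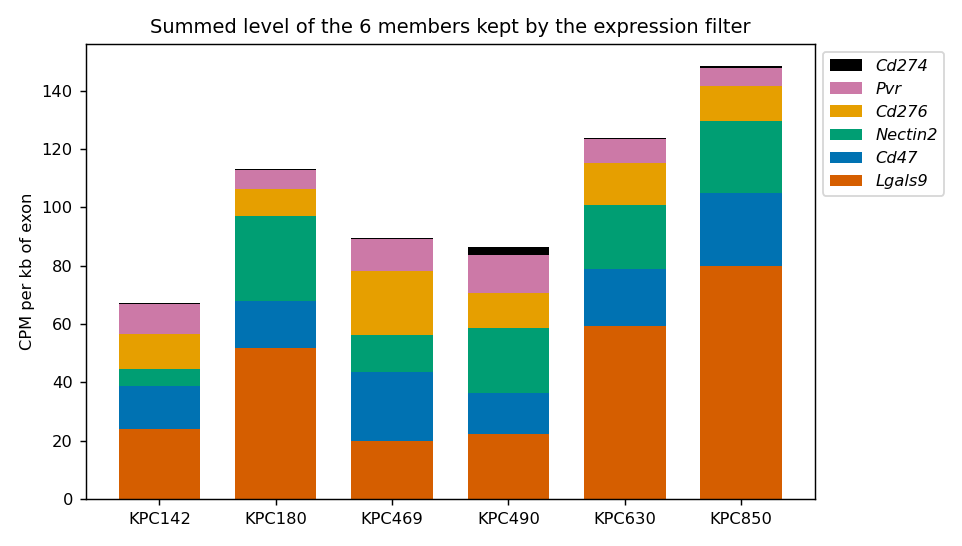
CPM per kilobase of exon (vertical axis) stacked for the 6 genes kept by the expression filter in each of 6 lines, 1 library each. Lgals9 makes up 53.6% of the summed level of the 10 genes in KPC850 and 22.2% in KPC469, and Cd274 is a thin band that reaches 3.44% in KPC490.

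Summed over the 10 genes, the level per length was 148.8 in KPC850, 124.1 in KPC630, 113.2 in KPC180, 89.9 in KPC469, 86.7 in KPC490 and 67.4 in KPC142. The highest sum was 2.21 times the lowest. Lgals9 supplied 53.6% of the sum in KPC850, 47.8% in KPC630 and 45.7% in KPC180, and 35.4% in KPC142, 25.7% in KPC490 and 22.2% in KPC469. These shares depend on the length used. Per coding length, an alternative chosen after seeing the data, Lgals9 supplied 35.8% in KPC850, 31% in KPC630 and in KPC180, 19.2% in KPC142, 14.8% in KPC490 and 11.4% in KPC469. Cd274, whose product is blocked by antibodies used in patients, supplied 3.44% in KPC490 and between 0.217% and 0.835% elsewhere. Over the other lengths its share in KPC490 lay between 1.73% and 4.08%, the most of any line each time.

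Cd274 (ENSMUSG00000016496, chromosome 19) had 186 counts in KPC490 (10.8 CPM), 42 in KPC850 (2.45 CPM), 34 in KPC142 (2.04 CPM), 23 in KPC180 (1.4 CPM), 25 in KPC630 (1.33 CPM) and 13 in KPC469 (0.708 CPM). KPC490 stood above every other line, 4.41-fold over KPC850 (3.14 to 6.32) and 15.3-fold over KPC469 (8.7 to 29.2). None of the 4 neighbouring steps below KPC490 in the order of lines exceeded counting error. Lines further apart did differ: the intervals of KPC850 (1.76 to 3.31 CPM) and KPC142 (1.41 to 2.85 CPM) did not overlap that of KPC469 (0.377 to 1.21 CPM). Even in KPC490 the level of Cd274 per length was above only 25.1% of the genes kept by the filter, and in KPC469 above 0.877%. A lead of KPC490 of 4-fold or more over the next line was seen in 0.0347% of the 11531 kept genes. These were 4 genes, Cd274 itself among them. The other 3, identified after their values were seen, were Car8, Tln2 and Nrbp2. The line and the cut were chosen with the Cd274 values known. The share also leaves out genes with few counts in any other line, which the filter removed, and Cd274 passed with 13 counts in KPC469. Pdcd1lg2 (ENSMUSG00000016498), the gene beside Cd274, had 0 counts in all 6 lines, with exact upper limits of 0.196 to 0.224 CPM.

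The genes around Cd274 were set beside it, by taking the 2 nearest kept genes on each side, a choice made after the data were seen. Relative to the median of the other 5 lines, KPC490 had 7.74 times as much Cd274. The same ratio was 1.48 for Plgrkt, 1.05 for the kinase gene Jak2, 0.845 for the noncoding A930007I19Rik and 1.41 for Ric1. A transcript that overlaps Cd274 on the opposite strand, AC119228.1, had 33 counts over all lines, 21 of them in KPC490, against 323 and 186 for Cd274. Its part in the Cd274 counts was not tested, and the strand setting of the counting is not given in the sources used here.

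**Figure D2:**
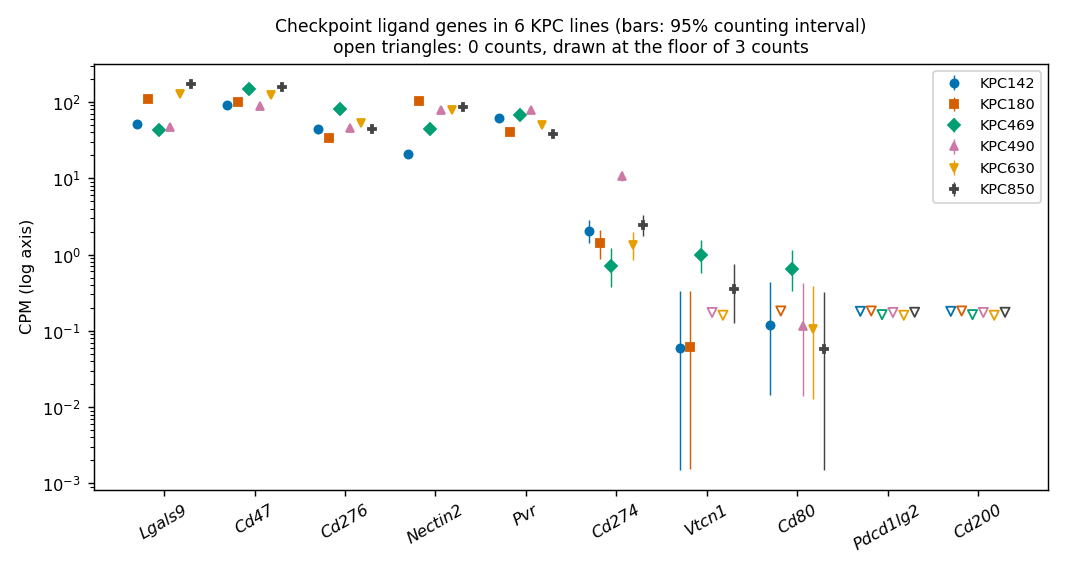
CPM on a log axis for the 10 genes (horizontal axis) in 6 lines, 1 point per library, with exact 95% counting intervals; open triangles are genes with 0 counts, drawn at the floor of 3 counts. Of the genes with an abundant transcript, Nectin2 in KPC142 (20.7 CPM) lies lowest, and Cd274 in KPC490 (10.8 CPM) lies apart from the other lines.

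Among 22 genes known to act on Cd274, comprising the interferon-gamma receptor and its signalling chain, transcription factors and regulators of PD-L1 protein, all passed the filter and 0 had a range of 4-fold or more, where 13.8% of all kept genes did. Their median range was 1.9-fold, close to the 1.95-fold of all kept genes. Myc was the 1 gene of the list that was highest in KPC490, at 300.0 CPM there and 119.3 to 268.9 CPM elsewhere. Irf1, an interferon-induced transcription factor that binds interferon-response elements, had 21.3 CPM in KPC490 and more in KPC630 (44.4) and KPC850 (36.4). Ifngr1, the ligand-binding receptor chain, had the widest range of the list, from 52.1 CPM in KPC469 to 190.1 CPM in KPC630, and stood at 161.8 CPM in KPC490. Cmtm6, which keeps PD-L1 protein at the surface, ran from 38.1 CPM in KPC469 to 85 CPM in KPC850, with 62.7 CPM in KPC490. Protein was not measured.

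**Figure D3:**
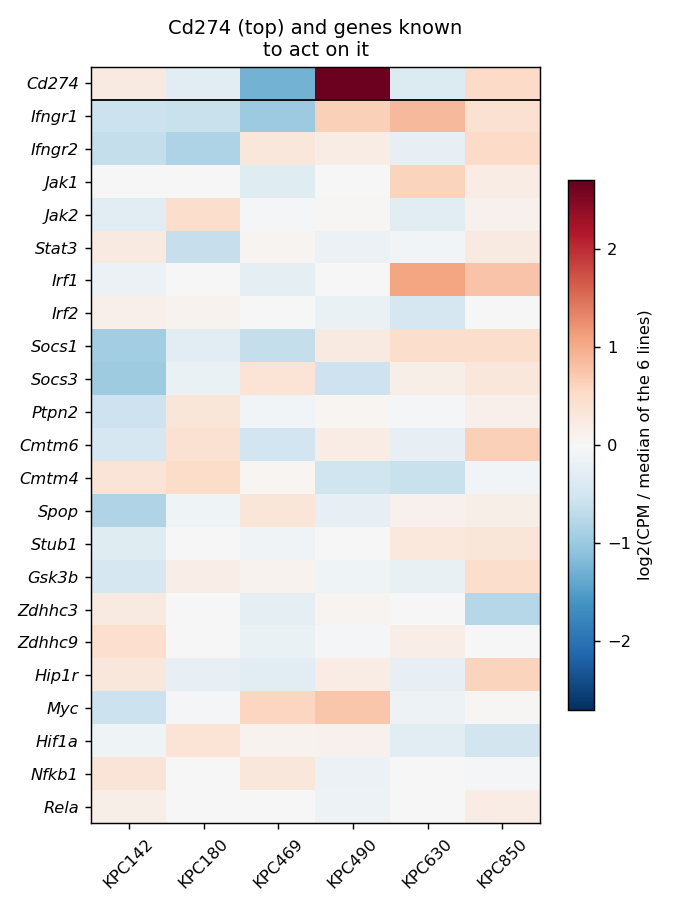
Log2 ratio of CPM to the median of the 6 lines (colour) for Cd274 in the top row and 22 genes known to act on it, by line (columns). Cd274 in KPC490 stands at 2.65, beyond the 0.74 of Myc and the 0.65 of Ifngr1 in the same line.

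Cd276 (ENSMUSG00000035914, chromosome 9) was the most abundant B7-family gene in every line. It had 80.7 CPM in KPC469, 52.8 in KPC630, 45.1 in KPC490, 44.6 in KPC850, 43.9 in KPC142 and 33.8 in KPC180. KPC469 was highest, 1.53-fold over KPC630 (1.41 to 1.66), and KPC180 lowest (highest over lowest 2.39, 2.16 to 2.64), while KPC490, KPC850 and KPC142 did not differ beyond counting error. Its exons have nearly the same total length as those of Cd274, and per length Cd276 exceeded Cd274 by 112.8-fold in KPC469 (65.8 to 212.4) and by 4.13-fold in KPC490 (3.52 to 4.87). In the other 4 lines the ratio of Cd276 to Cd274 lay between 18 and 39.2. Per mean length of coding transcripts it was larger, 218.1 in KPC469 and 7.99 in KPC490.

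The neighbours of Cd276, taken by the same choice, were also highest in KPC469 in 4 of 4 cases, where KPC469 was the highest line for 21.3% of kept genes. The cell adhesion gene Nptn had 288.7 CPM in KPC469 and 106.7 to 133.0 CPM elsewhere. Neo1, a netrin receptor gene, had 423.5 CPM in KPC469 and 128.2 to 215.4 CPM elsewhere. Stoml1 had 20.6 CPM in KPC469 and 8.25 to 12.7 elsewhere, and Pml 81.7 CPM in KPC469 and 53 to 73 elsewhere. Vtcn1 and Cd80 were also highest in KPC469. Of their neighbours, Man1a2 and Trim45 (beside Vtcn1) and Adprh and Poglut1 (beside Cd80) were highest in that line. Gdap2 and Ttf2 (beside Vtcn1) and Cox17 and Timmdc1 (beside Cd80) were not. The part of the locus in the Cd276 level was not tested. Cd276 had fractional expected counts in all 6 lines, and it overlaps Gm10657 on the opposite strand, which had 30 counts over all lines against 5302 for Cd276.

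Vtcn1 (ENSMUSG00000051076, chromosome 3) was nearly silent, with 18 counts in KPC469, 6 in KPC850, 1 each in KPC142 and KPC180 and 0 in KPC490 and KPC630. KPC469, at 0.981 CPM, stood 2.8-fold over KPC850 (1.07 to 8.63) and at least 5.63-fold over the lines at 0, taken at the floor of 3 counts per library. Cd80 (ENSMUSG00000075122, chromosome 16) had 12 counts in KPC469, 2 each in KPC142, KPC490 and KPC630, 1 in KPC850 and 0 in KPC180. KPC469 was again the highest line, at 0.654 CPM, 5.46-fold over KPC142 with a wide interval (1.21 to 50.2). Cd86, which binds the same receptors as Cd80, had 1 count in KPC142 and 0 in the other 5 lines. Cd200 (ENSMUSG00000022661, chromosome 16) had 0 counts in every line.

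Pvr (ENSMUSG00000040511) and Nectin2 (ENSMUSG00000062300), both on chromosome 7, share receptors but did not share an order of lines. Pvr had 78.2 CPM in KPC490, 67.5 in KPC469, 62.6 in KPC142, 50.2 in KPC630, 40.4 in KPC180 and 38.4 in KPC850. Its range was 2.04-fold (1.86 to 2.24), with KPC490 highest, and KPC469 and KPC142 did not differ beyond counting error, nor did KPC180 and KPC850. Nectin2 had 101.5 CPM in KPC180, 86.4 in KPC850, 77.7 in KPC630, 77.4 in KPC490, 44.1 in KPC469 and 20.7 in KPC142. Its range was 4.9-fold (4.36 to 5.51). KPC142 was 2.13-fold below the next line, KPC469 (1.87 to 2.42). A gap of 2-fold or more below the next line was seen for KPC142 in 1.31% of kept genes. That share leaves out genes with few counts in KPC142, which the filter removed.

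The balance of these 2 ligands within a line therefore differed. Per kilobase of exon, Pvr stood at 1.72 times Nectin2 in KPC142 (1.52 to 1.95). The ratio was 0.872 in KPC469 (0.798 to 0.954) and 0.577 in KPC490 (0.535 to 0.623). It was 0.368 in KPC630 (0.339 to 0.4), 0.253 in KPC850 (0.231 to 0.278) and 0.227 in KPC180 (0.207 to 0.248). The spread of this ratio over the lines, 7.61-fold, does not depend on the length used. The side of 1 does in KPC469 and KPC490. In KPC469 the ratio was 1.44 per longest coding transcript, 1.23 per mean length and 1.99 per coding length. In KPC490 it was 0.952, 0.816 and 1.31 with the same lengths. It stayed above 1 in KPC142 and below 1 in KPC630, KPC850 and KPC180 with all 4.

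**Figure D4:**
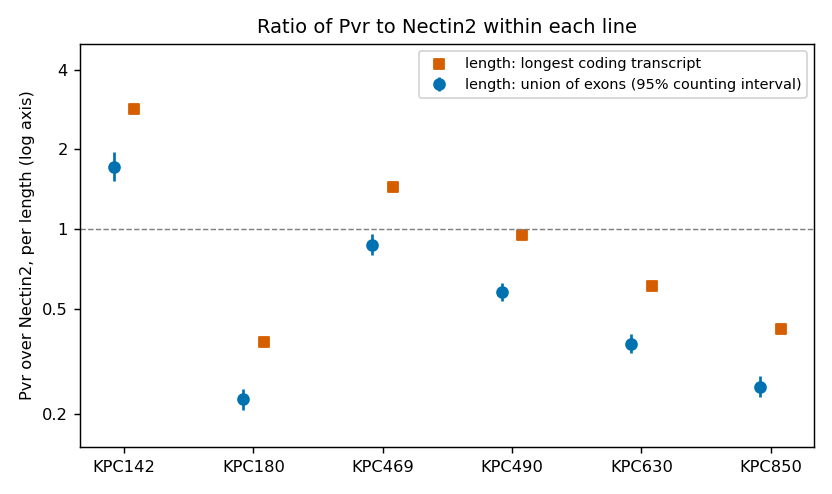
Ratio of Pvr to Nectin2 per length (log axis) within each of 6 lines, with the union of exons as length (circles, exact 95% counting interval) and with the longest coding transcript (squares). KPC142 lies highest at 1.72 and 2.84, and KPC180 lowest at 0.227 and 0.374.

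Cd47 (ENSMUSG00000055447, chromosome 16) varied least of the expressed genes. It had 156.8 CPM in KPC850, 147.5 in KPC469, 122.6 in KPC630, 101.3 in KPC180, 92.5 in KPC142 and 88.7 in KPC490. The range was 1.77-fold (1.66 to 1.88), below the 1.95-fold median of kept genes, and KPC142 and KPC490 did not differ beyond counting error. Of 7 genes linked to CD47, 6 passed the filter and 2 ranged over 4-fold or more, where 13.8% of all kept genes did. Thbs1, whose product thrombospondin-1 binds CD47, ran from 19 CPM in KPC850 to 633.3 CPM in KPC469 (33.3-fold). Lrp1, a receptor for engulfment signals, ran from 24 CPM in KPC142 to 262.6 CPM in KPC850 (10.9-fold). Qpctl, the enzyme that modifies CD47 so that SIRP-alpha can bind it, stayed between 9.29 and 16 CPM. Sirpa itself had 30 counts in KPC630 (1.6 CPM), 1 each in KPC469 and KPC490 and 0 in the other 3 lines.

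Lgals9 (ENSMUSG00000001123, chromosome 11) separated the lines into 3 with high and 3 with low levels. It had 170.5 CPM in KPC850, 126.7 in KPC630 and 110.6 in KPC180, and 51.1 in KPC142, 47.6 in KPC490 and 42.7 in KPC469. The gap between KPC180 and KPC142 was 2.17-fold (2 to 2.35), and every other step in the order of lines was 1.35-fold or less. Highest over lowest was 3.997 (3.69 to 4.33). Per length, Lgals9 was above 95.1% of kept genes in KPC850 and above 77.2% in KPC469. The ratio of Lgals9 to Cd47 per kilobase of exon was 0.849 in KPC469 (0.783 to 0.92), 1.57 in KPC490, 1.62 in KPC142, and 3.04 to 3.21 in the other 3 lines. Per coding length it was 0.28 in KPC469, 0.519 in KPC490, 0.535 in KPC142 and 1 to 1.06 in the other 3. Havcr2, the gene of the proposed receptor TIM-3, was itself detected, with 2 counts in KPC469 (0.109 CPM) and 22 to 124 counts elsewhere, the most in KPC490 (7.2 CPM).

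Of the 10 genes, 6 passed the filter, which asks for about 10 counts in every line. The other 4, Vtcn1, Cd80, Pdcd1lg2 and Cd200, did not. Of the 6, 2 had a range of 4-fold or more, Cd274 and Nectin2, against 13.8% of all kept genes, and Lgals9 lay at the limit: scaled by library totals or by DESeq2 size factors it passed, which made 3. At 2-fold or more there were 5 of the 6, all but Cd47, against 47.3% of kept genes. With a prior count of 2 on the log2 scale, 13.2% of kept genes reached 4-fold. The median range of the 6 was 3.19-fold. Cd274 had a wider range than 97.5% of kept genes, Nectin2 than 89.6%, Lgals9 than 86.2%, Cd276 than 67.8%, Pvr than 54.7% and Cd47 than 38.6%. Which line was highest also differed: KPC850 for Lgals9 and Cd47, KPC490 for Cd274 and Pvr, KPC469 for Cd276, Vtcn1 and Cd80, and KPC180 for Nectin2.

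**Figure D5:**
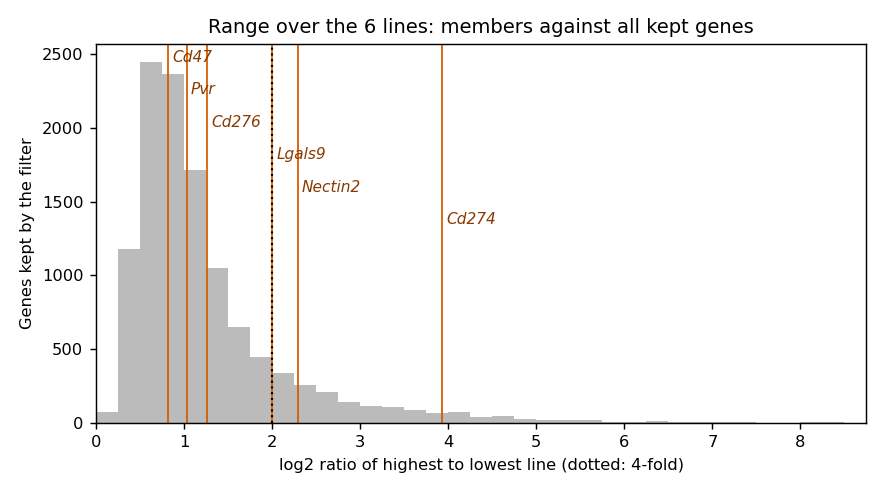
Number of kept genes (vertical axis) by the log2 ratio of highest to lowest of the 6 lines (grey bars, 0.25 wide), with the 6 kept members as vertical lines and 4-fold as a dotted line. Cd47 (0.82) lies near the middle of all kept genes and Cd274 (3.93) in the upper tail.

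Other ligands and surface genes of the same kind ranged from silent to abundant. Of 24 listed, 12 stayed under 1 CPM in every line, 3 of them at 0, and 9 passed the filter. Of the 9 that passed the filter, 4 varied by 4-fold or more, where 13.8% of all kept genes did. Ceacam1, a ligand reported to bind TIM-3, had 66 CPM in KPC490 and 1.56 to 21.4 CPM elsewhere. H2-T23, which encodes the Qa-1 ligand of the inhibitory receptor NKG2A, ran from 6.92 CPM in KPC469 to 45.7 CPM in KPC180. Nectin1, a relative of Nectin2, ran from 2.02 CPM in KPC469 to 16.5 CPM in KPC180, and the complement inhibitor gene Cd55 from 0.607 CPM in KPC180 to 16.8 CPM in KPC630. Icosl, the ligand of ICOS, stayed between 0.218 and 1.75 CPM, and Tnfrsf14, a ligand of BTLA, had 2 counts in KPC850 and 0 elsewhere. Of 12 receptor and partner genes of the set, 8 stayed under 1 CPM in every line. Among them Pdcd1 (PD-1) had 1 count in KPC142 and 0 elsewhere.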

How the data were processed

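RNA of 6 cell lines was sequenced from stranded poly(A) libraries, 1 per line, per the labels' protocols. The authors deposited expected counts per Ensembl gene, not scaled; per the submitters' processing notes the tools were RSEM 1.3.3, STAR 2.7.10b and Trimmomatic 0.36 on GRCm39, and the annotation is not given in the sources used here. Between 5.28% and 5.66% of deposited expected counts had a fractional part; all were rounded before use. With no groups, edgeR 4.0.16 (R 4.3.3) supplied only the filter (filterByExpr, no design; 11531 genes) and TMM factors (0.986 to 1.013), and no test was made. Symbols and exon lengths came from GENCODE vM21 (GRCm38), used for names, lengths and gene order; 52029 identifiers matched. Ratios have exact conditional binomial 95% intervals, whose calculation was tested on simulated Poisson counts. CPM in the figure have exact Poisson intervals, which were not tested in this way. The 10 genes and all lists were chosen with earlier results of these data known. All 10 genes are named. From each list up to 4 genes with a 4-fold range and at least 5 CPM in a line are named, plus a few fixed genes. A fixed gene and a listed cell type marker are not reported here and were left out of their lists and counts. Others, such as Myc, Ifngr1 and Tigit, were chosen after their values were seen. Alternatives were library totals, DESeq2 1.42.0 size factors, other filters, prior counts (2 in the log2 CPM used for all genes) and lengths.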

Additional observations from a re-analysis of the deposited data

How the results depend on the processing

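The highest-to-lowest ratios of the 6 kept genes stayed within their counting intervals under library totals, DESeq2 size factors, 2 other filters for the TMM factors and unrounded counts. With 2-fold in place of 4-fold, 5 of the 6 genes counted in place of 2. On the log2 scale with a prior count of 2, 1518 of the 11531 kept genes had a 4-fold range. Among the 24900 genes of at least 1 count, a larger set, this was 5065. The lead of the highest gene in a line depended on the length used. In KPC142 the ratio of Lgals9 to the best other gene was 0.688 per mean coding transcript length, 0.535 per coding length and 0.552 with no division, below Cd47 each time. In KPC490 the same 3 settings gave 0.668, 0.519 and 0.536. In KPC180 Lgals9 kept a ratio of 1.36, 1.06 and 1.09, in KPC630 of 1.29, 1.001 and 1.03, and in KPC850 of 1.36, 1.05 and 1.09 (3.4 per longest transcript). In KPC469 the lead of Cd47 was 1.99, 1.69 and 1.83, and only 1.045 per longest transcript. Lengths were also changed, after seeing the data, for the ratios within a line and the shares of the summed level: Lgals9 to Cd47 gave the same values as above in KPC142 and KPC490, and Pvr to Nectin2 crossed 1 in KPC469 (1.44, 1.23 and 1.99 per longest, mean and coding length) and in KPC490 (1.31 per coding length). No paired analysis was possible because the labels put no line in a group. At these depths genes with 0 counts may still be transcribed below 0.196 to 0.224 CPM, and 1 library per line gives no measure of variation between cultures.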

Other observations

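Apart from Icam1, the costimulatory ligand genes had 10.8 CPM or less in every line. Of 8 listed, 4 stayed under 1 CPM in every line, Cd70, Tnfsf18 and Tnfsf14 at 0 in all 6. Tnfsf9 (4-1BB ligand) ran from 2.94 CPM in KPC469 to 10.8 CPM in KPC180. Tnfsf15, a cytokine that costimulates T cells, had 7.61 CPM in KPC490 and 0.182 to 2.46 CPM elsewhere. Icam1, the adhesion ligand of LFA-1, stayed between 19.7 and 37.2 CPM.

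Tigit, a receptor gene of T and natural killer cells that binds Pvr, was counted in every line, at 36.5 CPM in KPC850, 33.1 in KPC180, 18.2 in KPC630, 17.9 in KPC142, 16.6 in KPC490 and 16.2 in KPC469. In the same libraries Cd226 had 0 counts in every line, Cd96 had 1 count in KPC630 and 0 elsewhere, and Cd3e had 1 count each in KPC180 and KPC469 and 0 elsewhere. Zbtb20, a neighbouring gene on the opposite strand, had 118.4, 117.3, 38.7, 63.5, 74.9 and 55.6 CPM in the same order of lines. It was highest in the same pair of lines as Tigit but lowest in KPC630, the third line for Tigit. Its part in the Tigit counts was not tested.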
